A study of Mus musculus with 7 samples.

Results

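The SOX factors *Sox1*, *Sox2*, *Sox3*, *Sox4*, *Sox9*, *Sox11* and *Sox21* and the filament gene *Nes* were examined, 8 of the 21965 genes in the count table. The set was chosen by a readout of these same libraries: *Sox3* was picked because it is higher in the libraries with the *Bmal1*-/- label, and its relatives and *Nes* were added as genes of the same progenitor programme. What is given for *Sox3* between genotypes is therefore a description with no test, and tests are given for the 7 other members. RNASeq was made from a 5 mm spinal cord segment spanning the injury epicenter, taken at day 3 after a T9 contusion of 50 kdyn. There were 3 libraries labelled Arntl Knockout, here called *Bmal1*-/- after the protein (2 females and 1 male), and 4 labelled WT (2 females and 2 males), each from 1 mouse. The mice were young adults on a C57Bl/6J background. The knockouts carried the germline allele *Arntl* tm1Bra in all cells from conception on and came from crosses of heterozygotes. The WT mice were bought in, except for 1 knockout littermate whose library is not identified, so breeding source and genotype cannot be told apart. All 7 libraries come from injured cord collected in the morning, so they hold no uninjured and no evening sample.

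The labels were first compared with the targeted gene. *Arntl*, which encodes the clock factor BMAL1, stood at 22.5 to 24.2 CPM (counts scaled to a common library size with TMM factors) in the libraries with the *Bmal1*-/- label and at 11.9 to 15.3 CPM in WT. The gene count is 1.71-fold higher where the label gives a knockout (adjusted p = 0.0155, quasi-likelihood test of edgeR, Benjamini-Hochberg adjusted over all genes tested). Leaving out replicate 1, 2 or 3 of the libraries with the *Bmal1*-/- label or WT replicate 4 ended that call (log2 fold change 0.76 to 0.80, adjusted p = 0.0520 to 0.102, edgeR). The allele removes the part of the gene that codes for the bHLH domain, and a count of the whole gene, which takes in reads from all other exons, does not check that part. Which exons the reads fell on was not analysed here, so the groups are named by their labels throughout. Of the clock genes that BMAL1 drives, only *Nr1d1* and *Dbp* were read here. Both were lower where the label gives a knockout, which does not speak for the other such genes. *Nr1d1* stood at 5.31 to 7.28 CPM against 29.2 to 36.8 CPM in WT (log2 fold change -2.51, adjusted p = 0.000456, edgeR). *Dbp* stood at 7.80 to 8.83 CPM against 25.3 to 39.3 CPM (log2 fold change -1.85, adjusted p = 0.00328, edgeR). Both calls held with each library left out in turn. *Nr1d1* shares 263 exonic bases with *Thra* and *Dbp* 539 with *Sphk2*, both on the opposite strand. Totals ran from 38529644 to 44096737 counts per library. WT replicate 3 was the highest of its group on principal components 1 and 2 (51.4 and 36.9), which held 48.6% and 26.3% of the variance. On component 1 the libraries with the *Bmal1*-/- label lay at -48.6 to -18.3 and WT at 10.2 to 51.4. The groups were thus apart there, and WT replicate 3 lay farthest from the other group. The other WT libraries were not close together on component 2. WT replicates 1 and 2, both female, lay at -32.4 and WT replicate 4, a male like replicate 3, at 7.23. What set them apart was not tested. Of 15743 genes tested, 103 were higher and 144 lower in the libraries with the *Bmal1*-/- label, 1.57% of all. DESeq2 called 1495 of the 16369 genes to which it gave an adjusted p. That is 9.13%, given below as its share of all genes. With 1 library left out, edgeR called from 57 genes (without replicate 1 of the libraries with the *Bmal1*-/- label) to 730 (without WT replicate 3). The levels of the groups did not overlap for 26.9% of the 15743 genes, and 20.9% had an unadjusted p under 0.05 from edgeR. These shares are the background against which the members and every list are read.

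SOX proteins are transcription factors that bind DNA through an HMG box, a domain of similar sequence throughout the family. The SOXB1 proteins SOX1, SOX2 and SOX3 keep neural progenitors undifferentiated and act largely in place of each other, SOXB2 proteins such as SOX21 oppose them, and the SOXC proteins SOX4 and SOX11 come on as cells commit to a neuronal fate. SOX9, a SOXE protein, starts gliogenesis and stays on in astrocytes and ependymal cells, and nestin is an intermediate filament of progenitors that reactive astrocytes and growing vessels also make. BMAL1 itself drives transcription from E-box motifs in the daily clock.

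Because the HMG boxes are alike, a read of one SOX gene could be counted for another, and the coding sequences were therefore compared first. The 90 bases of the *Sox3* HMG box most alike across the 7 SOX members follow, read from GENCODE release M21 (GRCm38), 5′ to 3′ on the coding strand. Capitals mark the bases that differ from *Sox3*.
Sox3, chrX:60892903-60892992, minus strand: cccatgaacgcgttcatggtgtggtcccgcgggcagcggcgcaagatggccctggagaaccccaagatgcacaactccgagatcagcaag
Sox1, chr8:12396520-12396609, plus strand: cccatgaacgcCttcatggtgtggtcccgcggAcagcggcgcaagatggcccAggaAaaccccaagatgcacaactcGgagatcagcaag
Sox2, chr3:34650551-34650640, plus strand: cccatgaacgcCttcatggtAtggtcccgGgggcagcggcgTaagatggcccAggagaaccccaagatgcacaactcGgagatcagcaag
Sox21, chr14:118235516-118235605, minus strand: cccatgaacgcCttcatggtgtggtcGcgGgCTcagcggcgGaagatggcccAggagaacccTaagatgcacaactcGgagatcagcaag
Sox4, chr13:28952749-28952838, minus strand: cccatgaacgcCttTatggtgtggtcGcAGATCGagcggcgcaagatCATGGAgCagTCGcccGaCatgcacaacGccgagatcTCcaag
Sox11, chr12:27342166-27342255, minus strand: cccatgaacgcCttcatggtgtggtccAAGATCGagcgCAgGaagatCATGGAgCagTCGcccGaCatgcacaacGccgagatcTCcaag
Sox9, chr11:112782906-112782995, plus strand: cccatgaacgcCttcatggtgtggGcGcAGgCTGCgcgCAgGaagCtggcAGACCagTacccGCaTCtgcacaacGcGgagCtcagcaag
*Sox1* had 85 of the 90 bases of *Sox3* (94.4%), *Sox2* had 84 and *Sox21* had 81. The more distant *Sox4* had 66, and *Sox9* and *Sox11* had 64 each. Even so, no stretch of 50 bases in the *Sox3* transcript occurs in a transcript of another gene. Its longest run shared with *Sox1* in coding sequence is the 45 bases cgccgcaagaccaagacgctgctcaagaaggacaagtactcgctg. With *Sox2* the longest run is the 32 bases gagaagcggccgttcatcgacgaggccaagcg, shown because these runs are where reads of the 3 SOXB1 genes are hardest to separate.

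By sequence, 5 members were distinct and 3 were not. *Sox2*, *Sox3*, *Sox9*, *Sox11* and *Nes* shared no stretch of 50 bases with another annotated gene. *Sox2* lies within *Sox2ot* on the same strand, with 0 exonic bases in common. *Sox4* shared 54.1% of its 50-base stretches with *Gm26735*, an antisense lincRNA that overlaps 2616 of its exonic bases, and *Sox21* shared 17.8% with the antisense gene *Gm4675*. *Sox1* shared 0.77% with the small RNA gene *Gm25239* on its own strand. The libraries were stranded, but the strand setting of the counting is not given in the sources used here, so reads of *Sox4* and *Sox21* cannot be told apart from those of their antisense partners.

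*Sox3* (ENSMUSG00000045179), a gene of 1 exon on the X chromosome (GRCm38, minus strand, 60891366 to 60893430), stood at 9.73, 8.66 and 9.16 CPM in the libraries with the *Bmal1*-/- label. In WT it stood at 1.84, 2.18, 2.32 and 1.89 CPM. The lowest value of the first group was thus 3.73 times the highest of the second, and libraries within a group lay close together. The means were 9.18 ± 0.54 CPM (SD, n = 3) and 2.06 ± 0.23 CPM (SD, n = 4), a fold of 4.46 and a log2 fold change of 2.16. Raw counts were 361 to 383 against 72 to 93. Over 15 alternatives the log2 fold change stayed between 2.10 and 2.22.

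As *Sox3* is X-linked, its values were also read by sex, and females and males of a group lay side by side. In the libraries with the *Bmal1*-/- label the females had 9.73 and 8.66 CPM and the male had 9.16 CPM. In WT the females had 1.84 and 2.18 CPM and the males 2.32 and 1.89 CPM. With sex as a covariate the log2 fold change was 2.16.

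**Figure D1:**
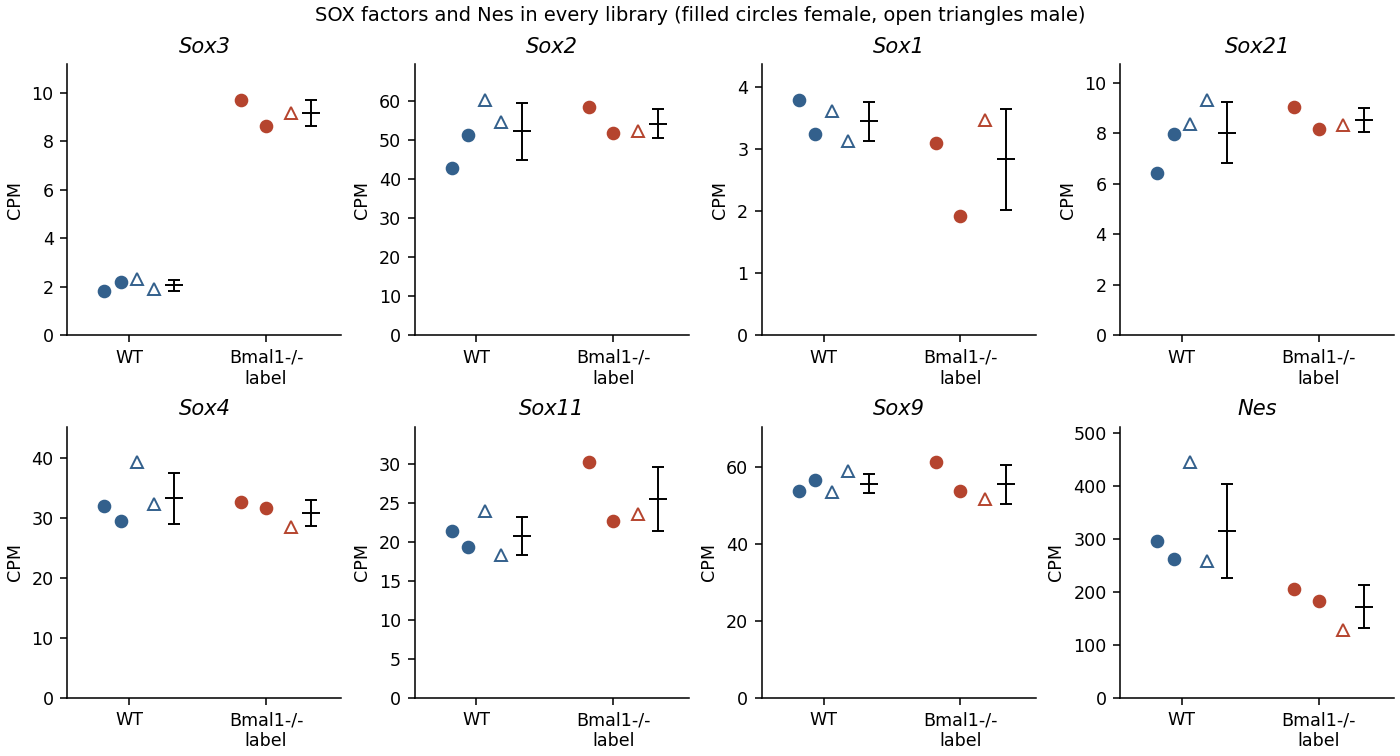
CPM of the 8 members in every library, with WT in blue and the libraries labelled Bmal1-/- in red. Filled circles are females, open triangles are males, and the black bars give the mean ± SD of each group. Sox3 lies at 8.66 to 9.73 CPM in one group and at 1.84 to 2.32 CPM in the other, Nes also has no overlap but in the opposite direction, and the groups of the 6 other SOX genes overlap.

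The other SOXB1 genes overlapped between the groups. *Sox2* (ENSMUSG00000074637, chromosome 3, 34650405 to 34652461), the stem cell factor and most abundant SOXB1 gene, stood at 58.5, 51.8 and 52.4 CPM in the libraries with the *Bmal1*-/- label. Its WT values of 43.0, 51.4, 60.5 and 54.7 CPM spread on both sides of them. The log2 fold change was 0.05 (95% interval -0.22 to 0.32, adjusted p = 0.806, edgeR).

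*Sox1* (ENSMUSG00000096014, chromosome 8, 12395295 to 12400126), the SOXB1 gene most restricted to neural cells, stood at 3.10, 1.93 and 3.48 CPM in the libraries with the *Bmal1*-/- label and at 3.80, 3.24, 3.62 and 3.13 CPM in WT. The groups overlap, and replicate 2 of the first group is the lowest of the 7. The log2 fold change was -0.28 (95% interval -0.78 to 0.22, adjusted p = 0.431, edgeR), and -0.07 without that library. At 83 to 149 counts per library, *Sox1* was the least counted member apart from *Sox3* in WT.

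Per transcript length, the 3 SOXB1 genes could be compared with each other. Levels are RPKM, the CPM divided by union exon length in kilobases, and their sum was 31.4 ± 2.12 RPKM (SD, n = 3) in the libraries with the *Bmal1*-/- label and 27.2 ± 3.61 RPKM (SD, n = 4) in WT. *Sox2* made up 83.2% to 84.6% of that sum in the first group and 92.6% to 94.4% in the second. The share of *Sox3* was 13.9% to 14.5% against 3.25% to 3.96%. *Sox1* held 1.34% to 2.35% against 2.30% to 3.49%. *Sox2* was thus 5.93 ± 0.16 times as abundant as *Sox3* in the libraries with the *Bmal1*-/- label (SD, n = 3) and 25.6 ± 2.61 times in WT (SD, n = 4). These shares contain *Sox3* and carry no test.

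**Figure D2:**
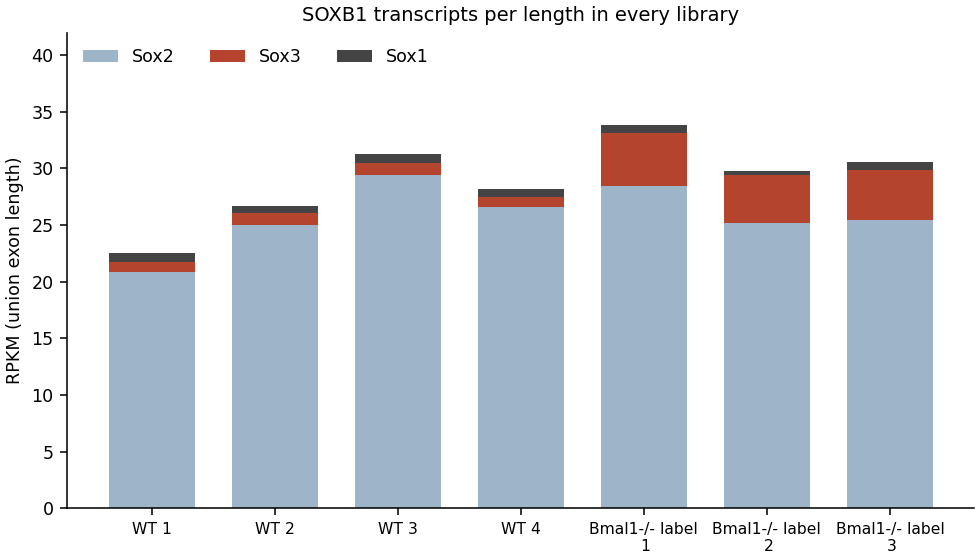
RPKM of Sox2, Sox3 and Sox1 stacked for each library, with the 4 WT libraries on the left and the 3 libraries labelled Bmal1-/- on the right. The Sox3 segment is 0.889 to 1.12 RPKM in WT and 4.19 to 4.71 RPKM in the other group, while the Sox2 segments of the groups overlap.

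*Sox21* (ENSMUSG00000061517, chromosome 14, 118233232 to 118237030), whose product represses targets of the SOXB1 proteins, stood at 9.05, 8.17 and 8.32 CPM in the libraries with the *Bmal1*-/- label. The WT libraries had 6.40, 7.97, 8.36 and 9.33 CPM, a range that encloses them. Its log2 fold change was 0.09 (95% interval -0.24 to 0.41, adjusted p = 0.708, edgeR).

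The SOXC genes, which rise in young neurons, also overlapped between groups. *Sox4* (ENSMUSG00000076431, chromosome 13, 28948919 to 28953713) stood at 32.6, 31.6 and 28.4 CPM against 31.9, 29.5, 39.3 and 32.3 CPM in WT. Its log2 fold change was -0.11 (95% interval -0.36 to 0.15, adjusted p = 0.544, edgeR). *Sox11* (ENSMUSG00000063632, chromosome 12, 27334264 to 27342574) stood at 30.3, 22.7 and 23.6 CPM against 21.5, 19.4, 24.0 and 18.4 CPM. It had the largest positive value among the 6 SOX relatives, a log2 fold change of 0.30 (95% interval -0.02 to 0.61, adjusted p = 0.256, edgeR), of which 0.16 was left without replicate 1 of the libraries with the *Bmal1*-/- label.

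*Sox9* (ENSMUSG00000000567, chromosome 11, 112782224 to 112787760), the gliogenic factor, had the narrowest interval of the members. It stood at 61.3, 53.7 and 51.7 CPM in the libraries with the *Bmal1*-/- label and at 53.8, 56.7, 53.4 and 58.9 CPM in WT. The means were 55.6 ± 5.05 CPM (SD, n = 3) and 55.7 ± 2.57 CPM (SD, n = 4). The 95% interval of its log2 fold change ran from -0.18 to 0.17 (adjusted p = 0.980, edgeR).

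Of the 7 members other than *Sox3*, edgeR called 0 at an adjusted p of 0.05, where 1.57% of all genes were called. DESeq2 called 1, *Nes* (9.13% of all genes), which was also the 1 member with an unadjusted p under 0.05 (20.9% of all genes). The 6 SOX relatives had log2 fold changes from -0.28 to 0.30, and the highest upper bound among their 95% intervals was 0.61, for *Sox11*. The value of *Sox3* itself was 2.16. Since *Sox3* was selected on this contrast, its difference from the relatives was not tested.

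*Nes* (ENSMUSG00000004891, chromosome 3, 87971078 to 87980451) was the 1 member other than *Sox3* whose groups did not overlap, with the lower values in the libraries with the *Bmal1*-/- label. It stood at 206, 184 and 128 CPM in the libraries with the *Bmal1*-/- label and at 296, 261, 445 and 258 CPM in WT. Of all genes 26.9% had no overlap either, and the WT values are spread mainly by replicate 3. The means were 172 ± 40.2 CPM (SD, n = 3) and 315 ± 88.5 CPM (SD, n = 4), 1.83-fold lower in the libraries with the *Bmal1*-/- label. The log2 fold change was -0.87 (95% interval -1.44 to -0.30) with an adjusted p of 0.131 from edgeR and 0.0111 from DESeq2, so the call depends on the tool. Without WT replicate 3 it was -0.66 (adjusted p = 0.0783) and without replicate 3 of the libraries with the *Bmal1*-/- label -0.70 (adjusted p = 0.412), both from edgeR.

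By length, *Nes* was the most abundant member in WT with 49.1 ± 13.8 RPKM (SD, n = 4), followed by *Sox2* with 25.5 ± 3.55 and *Sox9* with 13.5 ± 0.62 RPKM. *Sox4* had 6.93 ± 0.88, *Sox11* 2.50 ± 0.30, *Sox21* 2.11 ± 0.32, *Sox3* 1.00 ± 0.11 and *Sox1* 0.71 ± 0.07 RPKM. Of neighbours in this order, only the ranges of *Sox11* and *Sox21* overlapped over the 4 libraries. In the libraries with the *Bmal1*-/- label the order was *Nes* with 26.9 ± 6.26 RPKM (SD, n = 3), *Sox2* with 26.4 ± 1.81, *Sox9* with 13.4 ± 1.22 and *Sox4* with 6.43 ± 0.45 RPKM. *Sox3* came next with 4.45 ± 0.26, ahead of *Sox11* with 3.07 ± 0.50, *Sox21* with 2.24 ± 0.12 and *Sox1* with 0.59 ± 0.17 RPKM. There only *Nes* and *Sox2* overlapped as neighbours. *Sox3* was thus the seventh of the 8 in WT and the fifth in the libraries with the *Bmal1*-/- label.

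The rest of the SOX family was read from the same fit. The table holds 12 further SOX genes, of which 10 passed the filter on low counts, and *Sox15* and *Sox30* were at 1 to 7 counts in every library. edgeR called 0 of the 10, although 6 had an unadjusted p under 0.05 (20.9% of all genes), and DESeq2 called 5 (9.13% of all genes). The groups did not overlap for 5 of the 10, against 26.9% of all genes. The median log2 fold change was -0.15, beside -0.01 over all genes tested.

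The SOXF genes, transcription factors of endothelial cells, had the lowest fold changes of the SOX genes. *Sox7* stood at 4.45, 2.67 and 2.74 CPM in the libraries with the *Bmal1*-/- label and at 5.84, 5.60, 10.6 and 5.35 CPM in WT. *Sox17*, an arterial factor, stood at 6.07, 5.94 and 5.28 CPM against 9.13, 8.59, 14.4 and 8.12 CPM. *Sox18*, a factor of growing blood and lymph vessels, stood at 16.7, 12.9 and 12.6 CPM against 24.3, 17.3, 48.0 and 24.2 CPM. *Sox17* shares 804 exonic bases with *Gm37587* on the opposite strand, so its reads are as uncertain as those of *Sox4* and *Sox21*. In all 3 the groups do not overlap and WT replicate 3 is the highest library. The log2 fold changes were -1.06, -0.80 and -1.02 with adjusted p-values from edgeR of 0.144, 0.120 and 0.176. Without WT replicate 3 they were -0.77, -0.58 and -0.64, and *Sox17* then passed with an adjusted p of 0.0281 from edgeR.

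*Sox13*, a SOXD gene, came closest to a call among the others. It stood at 14.1, 14.7 and 14.2 CPM in the libraries with the *Bmal1*-/- label and at 19.5, 21.1, 27.4 and 21.5 CPM in WT, again without overlap. The log2 fold change was -0.64 (95% interval -0.93 to -0.36, adjusted p = 0.0560, edgeR), and -0.53 with an adjusted p of 0.00970 without WT replicate 3. *Sox12*, the third SOXC gene, was at 12.8 to 13.9 CPM against 15.2 to 17.8 CPM, a log2 fold change of -0.32 (adjusted p = 0.111, edgeR). The glial SOX genes showed overlap. *Sox10*, the oligodendrocyte lineage factor, had a log2 fold change of 0.02, *Sox8* of 0.04, *Sox5* of 0.11 and *Sox6* of 0.18, with adjusted p-values from edgeR of 0.237 to 0.902. *Sox5* and *Sox8* share 1330 and 329 exonic bases with antisense genes, with the same uncertainty. *Sox14*, the other SOXB2 gene, had 7 to 23 counts per library and a log2 fold change of 0.60 (95% interval -0.13 to 1.33, adjusted p = 0.300, edgeR). *Sox6* lies 2.16 Mb from *Arntl* on chromosome 7.

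**Figure D3:**
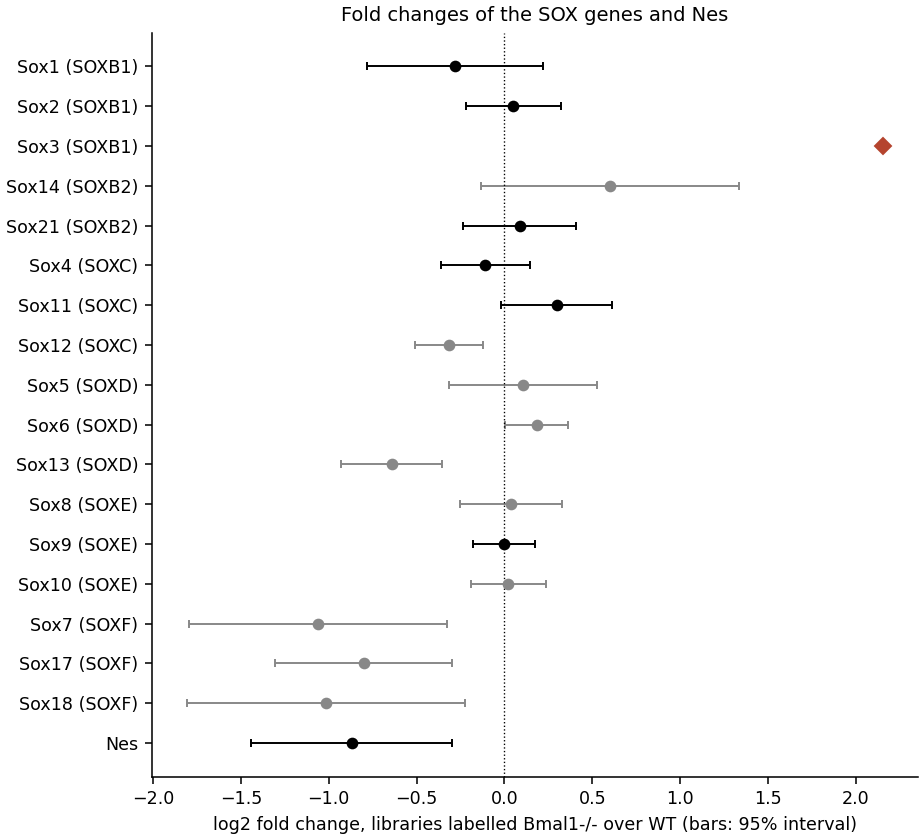
Log2 fold change of the 17 SOX genes tested and of Nes, grouped by SOX class, with 95% intervals from the edgeR fit. Black points are members, grey points are other SOX genes, and Sox3 is drawn as a diamond without an interval because it was chosen on this contrast. Sox3 stands at 2.16, the other members of its class near 0, and the SOXF genes and Nes between -1.06 and -0.80.

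Since *Nes* and the SOXF genes are also made by vessel cells, and nestin is common in dividing cells, those lists are given beside them. The 6 endothelial markers summed to 398, 343 and 366 CPM in the libraries with the *Bmal1*-/- label and to 473, 409, 683 and 436 CPM in WT. All 6 had a negative log2 fold change, 3 did not overlap between groups, and edgeR called 1, *Cdh5*, the gene of VE-cadherin (-0.85, adjusted p = 0.0466), while 3 had an unadjusted p under 0.05 and DESeq2 called 2. That call was lost when any library other than WT replicate 3 was left out (adjusted p = 0.0532 to 0.216, edgeR). Of all genes, 26.9% did not overlap, edgeR called 1.57% and DESeq2 9.13%. The 6 cycling cell genes summed to 307, 301 and 238 CPM against 455, 382, 637 and 467 CPM. None of them was called by edgeR, while all 6 had an unadjusted p under 0.05 (20.9% of all genes), all 6 were called by DESeq2 (9.13% of all genes) and their median log2 fold change was -0.91. *Mki67*, the most abundant, had 85.8 to 114 CPM against 129 to 208 CPM. In bulk tissue fewer cells of a type and less RNA per cell cannot be told apart, and the part of these cells in the values of *Nes* and the SOXF genes was not tested.

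**Figure D4:**
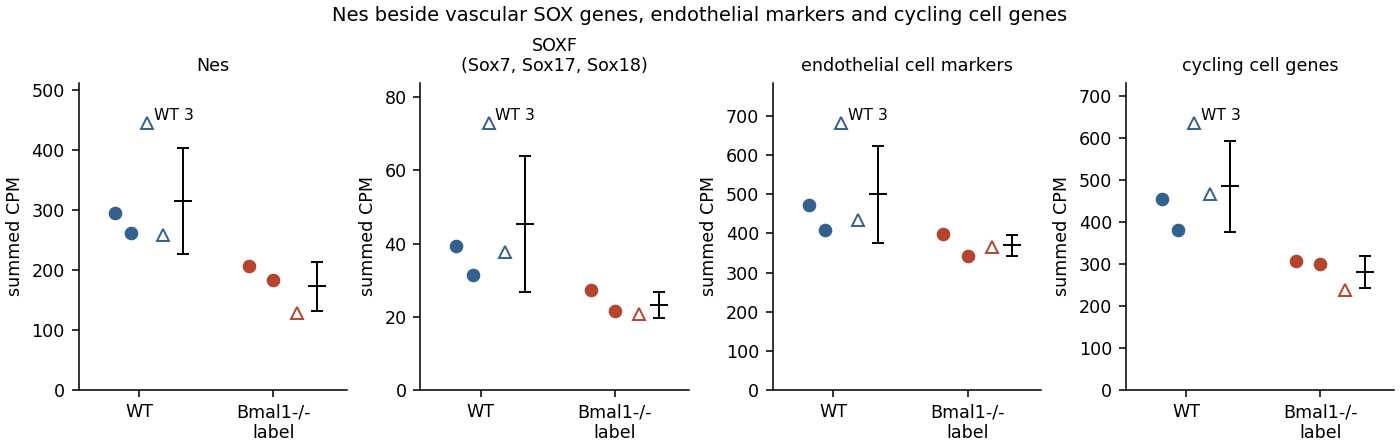
Summed CPM per library of Nes, the 3 SOXF genes, the 6 endothelial markers and the 6 cycling cell genes, with the mean ± SD of each group in black. WT replicate 3 is the highest library in all 4 panels, and in each panel every library labelled Bmal1-/- lies below every WT library.

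Markers of the glia that express the members were also read. The cord's own cell types were present in every library, with the 7 oligodendrocyte markers at 23077 to 34497 CPM in sum. The 8 astrocyte markers summed to 16244 to 18736 CPM in the libraries with the *Bmal1*-/- label and to 10984 to 15481 CPM in WT. edgeR called 0 of 8, with 4 at an unadjusted p under 0.05 and 2 called by DESeq2 (1.57%, 20.9% and 9.13% of all genes). The groups did not overlap, in either direction, for 5 of the 8 (26.9% of all genes). The most abundant, *Gfap*, had a log2 fold change of 0.42 (adjusted p = 0.270, edgeR). *Aldh1l1*, another defining astrocyte gene, had -0.47 (adjusted p = 0.133, edgeR) and 5 of the 8 values lay above 0 and 3 below. The 7 ependymal markers summed to 69.1 to 74.5 CPM against 69.8 to 79.2 CPM, with 0 called by edgeR or DESeq2 and 2 at an unadjusted p under 0.05. The part of astrocytes in the *Sox3* value was not tested.

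Markers of skeletal muscle and Schwann cells, types found outside the cord, did not overlap between the groups in any of the 5 genes of either list. Of all genes, 26.9% had no overlap, edgeR called 1.57% and DESeq2 9.13%, and 20.9% had an unadjusted p under 0.05. The 5 skeletal muscle markers summed to 4.57 to 5.96 CPM in the libraries with the *Bmal1*-/- label and to 40.3 to 49.4 CPM in WT, and edgeR called 4 of 5 lower (*Acta1*, *Ckm*, *Tnnt3* and *Mylpf*) and DESeq2 all 5. For replicates of the libraries with the *Bmal1*-/- label, the call of *Acta1* was lost without replicate 1, that of *Tnnt3* without replicate 3, and those of *Ckm* and *Mylpf* without replicate 1, 2 or 3 or WT replicate 1 (adjusted p = 0.0526 to 0.126, edgeR), while the log2 fold changes stayed between -3.78 and -1.74. *Myh4*, the fifth, was at 0 counts in replicate 1 of the libraries with the *Bmal1*-/- label. The 5 Schwann cell markers summed to 155 to 210 CPM against 235 to 554 CPM with all 5 called lower by DESeq2 and 1 of 5 by edgeR, *Egr2*, a call lost without replicate 1 or 3 of the libraries with the *Bmal1*-/- label or WT replicate 1 (adjusted p = 0.0580 to 0.109, edgeR). Neuron markers summed to 4469 to 5518 CPM against 1705 to 4441 CPM, with 0 of 7 called by edgeR or DESeq2 and 1 at an unadjusted p under 0.05. All 7 had a positive log2 fold change, and 4 did not overlap between the groups. Their median was 0.55, and 0.33 without WT replicate 3. No gene was called by edgeR among 7 OPC markers (1 at an unadjusted p under 0.05, 0 by DESeq2), 7 oligodendrocyte markers (1 and 0), 4 pericyte markers (3 and 2), 5 fibroblast markers (1 and 1) and 6 markers of microglia and macrophages (0 and 0). The fibroblast markers summed to 376, 2213 and 298 CPM in the libraries with the *Bmal1*-/- label and to 1103 to 1817 CPM in WT. All 5 had a negative log2 fold change. Their median was -0.51, and -1.88 without replicate 2 of the libraries with the *Bmal1*-/- label, the high one. The part of all these cell types in the values of the members was not tested.

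Over 7 lists of related genes, the other SOX genes and the cycling cell genes included, 4 of the 58 genes tested were called by edgeR (1.57% of all genes) and 21 by DESeq2 (9.13% of all genes). With 1 library left out, edgeR called 2 (without replicate 1 of the libraries with the *Bmal1*-/- label) to 13 (without WT replicate 3). In the list of 10 tested progenitor markers, *Fabp7*, a fatty acid binding protein gene of radial glia, stood at 1071, 993 and 822 CPM in the libraries with the *Bmal1*-/- label and at 170, 169, 205 and 150.2 CPM in WT. Its log2 fold change was 2.47 (95% interval 2.15 to 2.80, adjusted p = 0.000456, edgeR). *Hopx*, a homeodomain gene of radial glia and astrocytes, went down from 105 to 115 CPM in WT to 67.9 to 78.0 CPM (log2 fold change -0.56, adjusted p = 0.0121, edgeR), a call lost without replicate 1 of the libraries with the *Bmal1*-/- label (adjusted p = 0.0767, edgeR). DESeq2 also called both, and with them *Rfx4* (log2 fold change 0.44, adjusted p = 0.0521 from edgeR and 0.000149 from DESeq2) and *Msi1* (0.24, adjusted p = 0.150 from edgeR and 0.0425 from DESeq2). The 6 other markers were called by neither tool, among them *Vim*, the gene of the filament protein that pairs with nestin, with a log2 fold change of -0.33 (adjusted p = 0.373, edgeR). The median of the list was 0.09, with 6 values above 0 and 4 below.

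Of the 12 Notch pathway genes, edgeR called 1 and DESeq2 2, with 4 at an unadjusted p under 0.05. Over all genes these shares were 1.57%, 9.13% and 20.9%, and 26.9% had groups without overlap. *Hes1*, the Notch effector that keeps progenitors from differentiating, stood at 4.19, 4.78 and 3.07 CPM in the libraries with the *Bmal1*-/- label and at 9.03, 7.84, 11.3 and 7.89 CPM in WT. Its log2 fold change was -1.16 (adjusted p = 0.0419, edgeR), and the call was lost when any library other than WT replicate 3 was left out (adjusted p = 0.0588 to 0.181). The second gene called by DESeq2 was *Jag1*, a Notch ligand gene, at 12.5 to 14.6 CPM against 22.2 to 37.3 CPM (log2 fold change -0.98, adjusted p = 0.0665 from edgeR and 0.000378 from DESeq2). Of 8 gliogenic factors edgeR called 1, *Id2*, an inhibitor of bHLH factors, at 152 to 165 CPM against 87.7 to 103 CPM (log2 fold change 0.73, adjusted p = 0.00508, edgeR). DESeq2 called 3, *Id2* and in the opposite direction its relatives *Id1* (log2 fold change -0.83, adjusted p = 0.178 from edgeR and 0.0477 from DESeq2) and *Id3* (-0.64, adjusted p = 0.110 from edgeR and 0.0102 from DESeq2), neither of which overlapped between the groups. The POU and PAX genes, whose products bind DNA next to SOX proteins, had 0 of 6 called by edgeR, 1 at an unadjusted p under 0.05 and 1 called by DESeq2. *Pou3f3*, the most abundant of them, had a log2 fold change of -0.000755. The neuroblast genes had 0 of 6 called by either tool and 1 at an unadjusted p under 0.05, and *Tubb3*, a neuronal tubulin gene, had a log2 fold change of 0.26 (adjusted p = 0.481, edgeR).

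The genes whose pattern over the 7 libraries was most like that of *Sox3* were taken from the 14357 tested genes with a mean of at least 1 CPM. They were *C2cd4b* (Pearson r of log2 CPM 0.997), *Fabp7* (0.994), *Tmed4* (0.993), *Vhl* (0.992) and *Col5a3* (0.990). All 5 were higher in the libraries with the *Bmal1*-/- label without overlap, with log2 fold changes of 5.23, 2.47, 0.39, 0.20 and 1.68. The points of such a correlation fall into the 2 groups, so it mainly restates the difference between them. Among the members, *Sox11* was the most alike with r = 0.70 (rank 1314 of 14357), and *Nes* the least with r = -0.77 (rank 13218).

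The E-box was searched in RefSeq promoters (GRCm38.p6), from 250 bases before to 50 after the start of a gene. The letters CACGTG, which read the same on both strands, occur in 7.15% of 32851 such windows and in 0 of the windows of the 6 members with an entry. *Sox3* and *Sox9* have no entry. Letters absent from these windows say nothing of sites elsewhere.

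**Figure D5:**
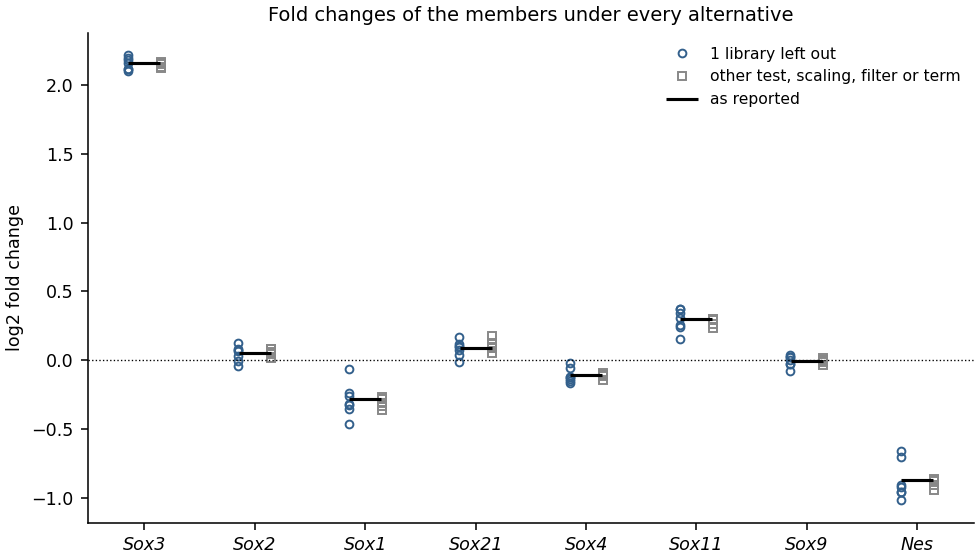
Log2 fold change of each member as reported (black line), with each of the 7 libraries left out in turn (blue circles) and under the 8 other tests, scalings, filters and model terms (grey squares). Sox3 stays between 2.10 and 2.22 and Nes between -1.02 and -0.66, while Sox2, Sox21 and Sox9 cross 0.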

How the data were processed

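The authors prepared stranded poly-A libraries, checked reads with FastQC 0.10.1, used Tophat2 for alignment (GRCm38) and HTSeq 0.10.0 for the counts per gene. The deposited counts are raw, and the annotation release and strand setting of the counting are not given in the sources used here. Genes were filtered with filterByExpr on genotype, scaled by TMM and fitted with the quasi-likelihood model of edgeR (edgeR 4.0.16, R 4.3.3) over all 15743 genes that passed, with a threshold of 0.05 on Benjamini-Hochberg adjusted p-values. The p-values measure the spread between single mice. RPKM used union exon lengths of GENCODE M21. The members, the 7 lists of related genes and the 11 marker lists were chosen with earlier results of these data known. Named are the members, every other SOX gene, in each list of related genes those called or else the most abundant, and the 5 genes most correlated with *Sox3*. Other genes named, from the marker and related lists and the clock, were chosen after their values were seen. Alternatives were DESeq2 1.42.0, limma-voom (limma 3.58.1), RLE and upper-quartile scaling, a sex covariate, a replicate block, a filter on a mean count of 10, a filter on 1 count alone, and each library left out.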

Additional observations from a re-analysis of the deposited data

Results flagged for a closer look

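Outlying WT libraries were looked for in 32 of the genes named. These were the members, the other SOX genes tested, the list genes called by edgeR and the 5 genes most like *Sox3*. For each, the highest or lowest of the 4 WT libraries was set against the other 3. Its gap to the nearest, as a share of the WT range, exceeded Dixon's critical value for 3 genes. Chance flags about 1 in 20 groups. All 3 were high in WT replicate 3. *Sox7* had 10.6 CPM there against 5.35 to 5.84 CPM in the other WT libraries. *Sox17* had 14.4 CPM against 8.12 to 9.13 CPM. *Mylpf*, a muscle myosin light chain gene, had 9.94 CPM against 5.22 to 5.50 CPM. No member was flagged in this way, *Nes* and *Sox3* included. *Nes* was also highest in WT replicate 3, at 445 CPM against 258 to 296 CPM in the other WT libraries, but stayed under the critical value. The libraries with the *Bmal1*-/- label were not checked in this way.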

How the results depend on the processing

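*Sox3* kept its direction and size in all 15 alternatives, and *Sox1*, *Sox4*, *Sox11* and *Nes* kept their direction. *Nes* (-0.87, not called) was called by DESeq2 (-0.87, adjusted p = 0.0111) and in no other alternative, where its adjusted p ran from 0.0783 to 0.476. *Sox9* (-0.004) was positive with DESeq2 (0.00088), RLE size factors (0.000304) and the replicate block (0.0203), and ran from -0.0792 to 0.0426 with 1 library left out. In the same way *Sox2* ran from -0.0385 to 0.126 and *Sox21* from -0.0111 to 0.168. The genes called (247) became 1495 with DESeq2 and 57 to 730 with 1 library left out. The genes called in the 7 lists (4) became 21 with DESeq2 and 2 to 13 with 1 library left out. Deviations of same-numbered replicates from their group means had r = -0.17, 0.18 and -0.29, and those of different-numbered replicates ran from -0.286 to 0.335. So few values cannot show whether the numbers pair the mice. With the replicate block 0 genes were called, 0 of them in the lists, and *Sox3* had a log2 fold change of 2.12 and *Nes* of -0.94. That model fits a term for each replicate number to 7 libraries, which leaves little to estimate the spread from. *Nr1d1* (-2.51, adjusted p = 0.0994, edgeR) and *Dbp* (-1.70, adjusted p = 0.0765, edgeR) lost their calls there too. The causes were not tested. With 3 and 4 mice, the interval of *Sox1*, at 83 to 149 counts, allowed a log2 fold change from -0.78 to 0.22, and *Sox15* and *Sox30* were too low to test.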
